A study of Homo sapiens with 10 samples.

Results

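Super-enhancers were examined in H1975 cells, an established human lung adenocarcinoma line that carries an EGFR mutation. They are clusters of neighbouring enhancers that together hold far more of an enhancer mark than a typical enhancer does. The mark was H3K27ac, acetylated lysine 27 of histone H3, measured by chromatin immunoprecipitation followed by sequencing (ChIP-seq). DMSO controls spent 21 days without drug and then 3 days with DMSO. Osimertinib drug-tolerant persisters (osimertinib DTP) are the cells left after 24 days of osimertinib, which blocks mutant EGFR, at 500 nM. Osimertinib DTP + AZD5153 cells had 21 days of osimertinib at 500 nM, after which AZD5153, a bivalent bromodomain inhibitor, was given at 150 nM for 3 days. The sample titles call this treatment a combo. Whether osimertinib was kept on during those days is not otherwise said in the labels. If it was stopped, the comparison with osimertinib DTP cannot tell AZD5153 from the end of osimertinib. All groups derive from the same cell line, each had 3 H3K27ac libraries from what the labels call biological triplicates, and an input library pooled from chromatin without immunoprecipitation served as background.

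The members were chosen from the measured signal. Of 169637 counted regions of 502 bp, 67387 carried a gene annotation, and 37864 of these lay over 2.5 kb from a transcription start site (TSS). Such distal regions were joined into a locus wherever the gap between neighbours was at most 10 kb, which gave 14006 stitched loci. The score of a locus was the sum over its regions of their mean CPM in the 9 H3K27ac libraries. CPM is the count scaled to the total of the library over all 169637 counted regions, so that libraries of different depth compare. Loci above the point where the curve of score on rank, both scaled from 0 to 1, reached a slope of 1 were taken as super-enhancers, here 839 loci with 7807 regions. The score therefore describes the members and is not tested. Since 6 of the 9 libraries in it were drug-treated, a locus with signal in those 6 alone reaches the threshold at a mean of 119 CPM, and one with signal in the 3 DMSO libraries alone at 237 CPM. The rule thus favours loci that are high in both drug-treated groups, which fixes part of the balance between rises and falls among the members. A locus with a group below the threshold reaches it only with the signal of the other libraries. Its rise or fall is then partly set by the rule, which holds for every locus named below. A locus is named by the gene symbol that most of its regions carry in the deposited annotation, that of the nearest TSS. The symbol says where a locus lies and not which gene it acts on.

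Enhancers are stretches of DNA away from a promoter at which transcription factors gather, loop to promoters and raise transcription. H3K27ac is laid down there by the acetyltransferases p300 and CBP, and bromodomain proteins read the acetylated chromatin and bring in the transcription machinery. Super-enhancers are known to lie near genes that set cell identity and, in tumour cells, near oncogenes.

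The counts of an H3K27ac library summed to between 6263443 (osimertinib DTP + AZD5153 replicate 3) and 10463351. Across the 839 super-enhancers the CPM of DMSO replicates had Spearman coefficients of 0.87 to 0.96 with each other. The coefficients were 0.69 to 0.70 among osimertinib DTP replicates and 0.84 between replicates 1 and 2 of osimertinib DTP + AZD5153. Replicate 3 of that group stood apart, at 0.29 and 0.23 with the other two. Counts of called loci and regions are therefore given with and without it. The promoter results and the calls of regions within each locus are given with all libraries only. Promoter regions were present for all 6 epithelial markers examined (EPCAM, CDH1, KRT7, KRT8, KRT18 and KRT19), whose summed level was 148 to 206 CPM for DMSO, 158 to 381 for osimertinib DTP and 172 to 369 for osimertinib DTP + AZD5153. Of 4 leukocyte markers CD79A alone had such a region, at 2.34 to 5.18, 0.1997 to 0.948 and 0.397 to 2.68 CPM, and of 3 endothelial markers CDH5 alone had one, at 6.74 to 17.3, 14.2 to 22.4 and 10.3 to 28.5 CPM. Of 4 fibroblast markers COL1A1, COL1A2 and PDGFRB had one, with a summed level of 7.27 to 17.2 CPM for DMSO, 28.4 to 84.7 for osimertinib DTP and 32.6 to 116 for osimertinib DTP + AZD5153. The part that this difference plays in the results was not tested. In bulk chromatin, a mark in fewer cells and less of the mark per cell cannot be told apart.

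The sequences shown are those of the 4 promoters of super-enhancer genes that the later comparison of locus and promoter turns on, chosen after their values were seen. They are GNA14 and MRAS, whose super-enhancers rose in osimertinib DTP, LINC02324, of whose 2 super-enhancers that of rank 222 fell, and THUMPD3, whose super-enhancer fell. Each is the 250 bases before the TSS, 5′ to 3′ on the strand of the gene, from RefSeq on GRCh38.p14. Capitals mark matches to motifs searched on both strands. GNA14, a G protein alpha subunit, has its promoter at chr9:77648323-77648572 on the minus strand, MRAS, a RAS-related GTPase, at chr3:138348329-138348578 on the plus strand, the long noncoding RNA LINC02324 at chr14:65222348-65222597 on the minus strand and THUMPD3, a tRNA methyltransferase, at chr3:9362804-9363053 on the plus strand.
GNA14: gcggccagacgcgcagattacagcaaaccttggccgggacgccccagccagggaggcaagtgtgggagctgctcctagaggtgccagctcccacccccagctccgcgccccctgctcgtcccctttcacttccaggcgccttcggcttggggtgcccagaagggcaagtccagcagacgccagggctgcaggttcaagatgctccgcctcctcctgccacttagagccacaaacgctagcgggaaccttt
MRAS: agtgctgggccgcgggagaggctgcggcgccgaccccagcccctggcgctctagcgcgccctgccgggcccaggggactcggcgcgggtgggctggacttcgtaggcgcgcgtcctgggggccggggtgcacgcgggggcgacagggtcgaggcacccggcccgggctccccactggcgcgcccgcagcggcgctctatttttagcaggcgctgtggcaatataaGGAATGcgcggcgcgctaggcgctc
LINC02324: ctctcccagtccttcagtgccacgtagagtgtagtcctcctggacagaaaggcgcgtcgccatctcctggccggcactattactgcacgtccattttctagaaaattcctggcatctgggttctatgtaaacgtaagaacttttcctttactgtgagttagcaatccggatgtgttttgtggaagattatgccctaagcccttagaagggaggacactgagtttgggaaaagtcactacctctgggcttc
THUMPD3: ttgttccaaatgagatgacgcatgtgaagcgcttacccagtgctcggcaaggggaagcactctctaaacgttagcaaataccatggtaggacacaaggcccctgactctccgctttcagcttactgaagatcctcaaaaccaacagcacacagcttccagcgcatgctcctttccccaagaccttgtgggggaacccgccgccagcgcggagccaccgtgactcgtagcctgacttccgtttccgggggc

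The motifs were AP-1 (TGANTCA, in 6.57% of the 35116 promoter windows of the same length), TEAD (GGAATG, 11.9%), FOXA (TGTTTAC, 2.98%), RUNX (TGTGGTT, 3.65%), ETS (CCGGAAG, 8.52%), NKX2-1 (CACTTGA, 2.06%), NF-Y (CCAAT, 32.01%) and SP/KLF (GGGCGG, 42.6%). Matches were allowed to overlap. A match is a description of the letters and not a bound site. Of the 4 windows MRAS alone held a match, 1 to TEAD close to its TSS. The windows of MMP24-AS1-EDEM2 and CEMIP2, whose super-enhancers also rose, are not printed. They held 6 matches (TEAD, NF-Y and SP/KLF) and 1 match (SP/KLF). So the scarcity of matches in the printed windows describes only the windows chosen.

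Super-enhancers also hold microRNA genes, whose short products bind messenger RNAs through the seed, bases 2 to 8. Of 1562 hairpins in the RefSeq table, 11 lay inside 9 super-enhancers. The 3 mature sequences below are those of a super-enhancer that changed and of the highest-ranked super-enhancer with a pair of hairpins. The seed is in capitals. Those of miR-221 and miR-222 are the same.
hsa-miR-7850-5p: gUUUGGACauaguguggcugg
hsa-miR-221-3p: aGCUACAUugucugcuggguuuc
hsa-miR-222-3p: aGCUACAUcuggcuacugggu

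The super-enhancers were longer and less dependent on 1 region than other stitched loci, as the rule favours. Their median was 8 regions (2 to 36, the most at TRIO, a guanine nucleotide exchange factor) over 14.2 kb (1.03 to 71.1 kb, the longest at ETS1, an ETS transcription factor). The strongest region held a median of 26.3% of the score, against 63.7% in the other loci. Of the 7807 regions, 56.5% were intronic and 32.1% distal intergenic, against 56.1% and 30.1% of the other distal regions, measures that the rule did not use. The 839 loci carried 729 naming symbols, 85 of which named more than 1 super-enhancer. PVT1 named 7, PALLD 5 and PHLDB2 4. They made up 9.77% of the stitched loci on chromosome 22 and 9.25% on chromosome 20, against 2.24% on chromosome 21 and 5.99% over all chromosomes.

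Of the 5 highest-scoring loci 4 lay on chromosome 8. A locus in PVT1, a long noncoding RNA gene beside MYC, scored highest at 782 CPM, with 644, 424 and 487 CPM for DMSO, 859, 777 and 789.6 for osimertinib DTP and 909.8, 871 and 1327 for osimertinib DTP + AZD5153. The locus at LIF-AS1, which spans regions assigned to the IL6-family cytokine genes LIF and OSM, was the second at 627 CPM. It held 449, 598 and 525 CPM for DMSO, 468, 787 and 524 for osimertinib DTP and 691, 780.5 and 948 for osimertinib DTP + AZD5153, with overlapping groups. A further PVT1 locus (605 CPM), MIR1208 (604) and MYBL1, the gene of the transcription factor A-MYB (540.3), came next. Ranks 6 to 10 were GADD45B, a growth arrest and DNA damage gene (486 CPM), MYOF, which encodes the membrane repair protein myoferlin (454), SUSD1 (448), the nuclear noncoding RNA gene MALAT1 (443) and LINC01460 (428). At the threshold, PACSIN2 (79.2 CPM) and FSTL1 (79.15) lay just inside and LINC01638 (79.06) and CPZ (79.01) just outside.

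**Figure D1:**
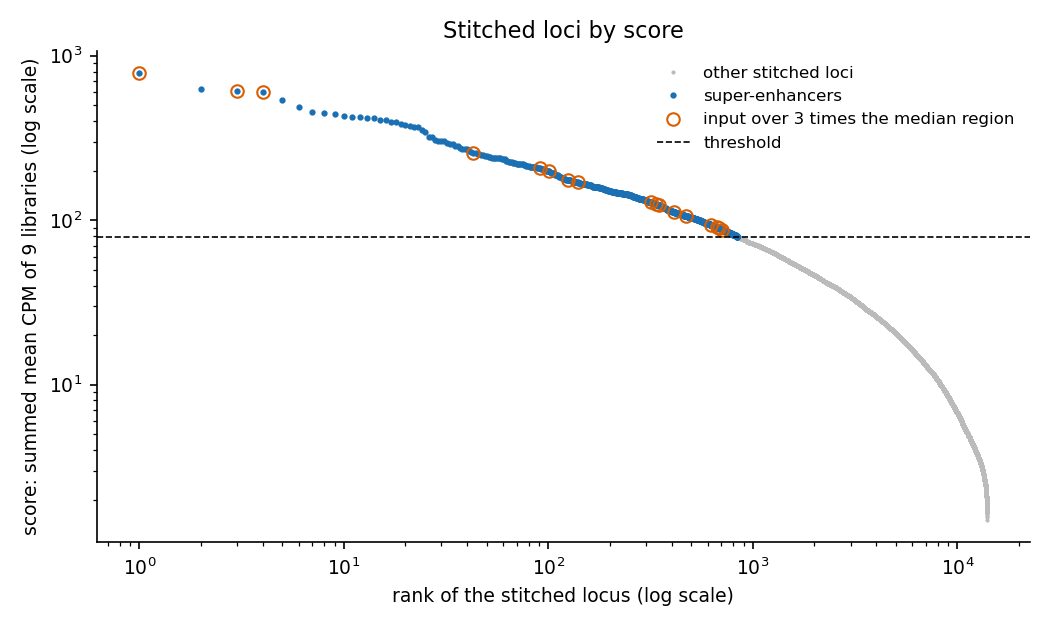
Score of each of the 14006 stitched loci, in summed mean CPM of the 9 H3K27ac libraries, on its rank. A dashed line marks the threshold, and open circles mark super-enhancers with input over 3 times the median region. The 839 super-enhancers sit above the threshold of 79.1 CPM, and the top locus, at PVT1, reaches 782 CPM.

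The pooled input was high at some of the top loci. At 17 super-enhancers the input count per region exceeded 3 times the median distal region, 12 of them on chromosome 8 and 3 of them among the 10 highest scores. The PVT1 locus of rank 1 had 1542 input CPM against a score of 782, the PVT1 locus of rank 3 had 998 against 605, and the MIR1208 locus had 976 against 604. With input CPM subtracted from the score these fell to ranks 13642, 13647 and 13655 of 14006. LIF-AS1, MALAT1 and GADD45B took ranks 1, 2 and 3. Input CPM was scaled to the input total over the counted regions (1870885), and not to all reads sequenced. Input and enriched libraries thus share the same total in these regions, so a rank after subtraction does not show less signal than background. Subtraction gave 983 super-enhancers that held 83.8% of the 7807 regions. No copy number was measured, so the part of DNA content in these values was not tested.

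The first comparison asks how super-enhancer acetylation differs between osimertinib DTP and DMSO. Of the 839 super-enhancers, 102 (12.2%) rose and 76 (9.06%) fell, by a median of 1.487 and 1.496 on the log2 scale, so that most of the 839 passed the test in neither direction. Loci near C1orf198, ARID5B and UGCG gained acetylation, and loci near KCNMA1, DCBLD2, FHL2 and CDCP1 lost it. Over all 14006 stitched loci 15.4% were called higher and 16.6% lower, so both shares of super-enhancers were below the background. The median log2 fold change was 0.07 over the super-enhancers and −0.01 over all stitched loci. A locus was called at an adjusted p under 0.05 in an edgeR quasi-likelihood test of its summed counts. The CPM of the 3 libraries of each group did not overlap in 408 super-enhancers (48.6%), against 58.3% of all stitched loci. These 408 held 177 of the 178 called. The direction of this balance rests on the scaling. Without TMM scaling 74 rose and 83 fell, with DESeq2 72 and 82, and with a loess offset 107 and 101. Without osimertinib DTP + AZD5153 replicate 3, which enters the estimate of the spread, 199 (23.7%) rose and 152 (18.1%) fell, against 25.1% and 27.1% of all stitched loci in that fit.

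C1orf198, at chr1:230849125-230863946, had the largest rise. It held 13.8, 9.01 and 7.17 CPM for DMSO, 172, 221 and 155 for osimertinib DTP and 180.1, 196 and 281 for osimertinib DTP + AZD5153 (log2 fold change 4.19 ± 0.41 SE, adjusted p = 0.00024). The 8 largest rises and falls were taken among called loci whose DMSO and osimertinib DTP libraries did not overlap, so this separation was required. The locus nearest to the microRNA gene MIR6774 held 11.3, 8.396 and 10.9 CPM for DMSO, 62.8, 128 and 125 for osimertinib DTP and 150.5, 171 and 129 for osimertinib DTP + AZD5153 (log2 fold change 3.36 ± 0.42 SE, adjusted p = 0.00046). Its hairpin lies 44.0 kb outside the locus. ARID5B, which encodes a DNA-binding subunit of a histone demethylase complex, had a locus at chr10:62075378-62094710 with 22.3, 17.7 and 14.3 CPM for DMSO, 117, 139.6 and 183 for osimertinib DTP and 222, 240.0 and 135 for osimertinib DTP + AZD5153 (log2 fold change 3.02 ± 0.39 SE, adjusted p = 0.00050). UGCG encodes glucosylceramide synthase, the entry enzyme of glycosphingolipid synthesis. Its locus held 24.01, 11.2 and 11.6 CPM for DMSO, 135, 89.4 and 98.1 for osimertinib DTP and 194, 93.6 and 78.6 for osimertinib DTP + AZD5153 (log2 fold change 2.78 ± 0.47 SE, adjusted p = 0.00092). At these 4 loci the DMSO libraries lay between 7.17 and 24.01 CPM and the libraries of both drug-treated groups between 62.8 and 281 CPM. With so little signal in DMSO these loci were members only through the drug-treated libraries, so their place among the largest rises is partly set by the rule.

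The other 4 of the 8 largest rises were at CRIM1, which encodes a transmembrane protein that binds bone morphogenetic proteins (log2 fold change 2.88 ± 0.54 SE, adjusted p = 0.0015), the readthrough gene MMP24-AS1-EDEM2 (log2 fold change 2.86 ± 0.45 SE, adjusted p = 0.00074), DCAF5, a substrate receptor gene of CUL4 ubiquitin ligases (log2 fold change 2.82 ± 0.46 SE, adjusted p = 0.00082), and TMEM212-AS1 (log2 fold change 2.82 ± 0.59 SE, adjusted p = 0.0027). For DCAF5 the values were 34.4, 26.4 and 18.5 CPM for DMSO, 171, 197 and 192 for osimertinib DTP and 219.6, 247 and 68.2 for osimertinib DTP + AZD5153. The 3 osimertinib DTP libraries lay between 171 and 197 CPM, and replicate 3 of osimertinib DTP + AZD5153 was the lowest treated library. All DMSO libraries lay below the threshold of 79.1 CPM, so the place of DCAF5 among the largest rises is also partly set by the rule. Here and below, the CPM printed per library are TMM-scaled (factors of 0.784 to 1.19) and the threshold is not. Setting them against 79.1 CPM is therefore approximate.

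KCNMA1, the gene of the large-conductance calcium-activated potassium channel, had the largest fall. Its locus at chr10:77501523-77514455 held 182, 300.2 and 212 CPM for DMSO, 42.8, 38.01 and 23.96 for osimertinib DTP and 54.04, 41.3 and 23.2 for osimertinib DTP + AZD5153 (log2 fold change -2.73 ± 0.43 SE, adjusted p = 0.00071). The locus of DCBLD2, which encodes a transmembrane receptor-like protein, held 243, 385 and 251.2 CPM for DMSO, 56.4, 46.96 and 43.9 for osimertinib DTP and 209, 189 and 36.6 for osimertinib DTP + AZD5153 (log2 fold change -2.58 ± 0.51 SE, adjusted p = 0.0019). Replicates 1 and 2 of osimertinib DTP + AZD5153 lay there between the DMSO values and the osimertinib DTP values. FHL2, a LIM-domain transcriptional cofactor gene, had a locus at chr2:105370646-105392721 with 176, 279.5 and 271 CPM for DMSO, 49.01, 33.5 and 49.3 for osimertinib DTP and 22.1, 17.4 and 19.2 for osimertinib DTP + AZD5153 (log2 fold change -2.46 ± 0.37 SE, adjusted p = 0.00063). CDCP1, the gene of a transmembrane substrate of SRC kinases, named 2 super-enhancers that fell. That of rank 495 held 142, 272 and 213 CPM for DMSO, 47.2, 44.6 and 40.4 for osimertinib DTP and 40.7, 65.4 and 40.8 for osimertinib DTP + AZD5153 (log2 fold change -2.24 ± 0.39 SE, adjusted p = 0.00093), and that of rank 192 had a log2 fold change -1.71 ± 0.40 SE, adjusted p = 0.0048. At KCNMA1, FHL2 and the CDCP1 locus of rank 495 every drug-treated library lay below the threshold of 79.1 CPM. These loci reached it only with the signal of the DMSO libraries, so their place among the largest falls is partly set by the rule.

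The remaining falls among the 8 largest were at LINC02038 (log2 fold change -2.67 ± 0.45 SE, adjusted p = 0.00085), LOC284788 (log2 fold change -2.58 ± 0.52 SE, adjusted p = 0.0022), C12orf66, a subunit gene of the KICSTOR complex that restrains mTORC1 (log2 fold change -2.52 ± 0.50 SE, adjusted p = 0.0020), and MIR5008 (log2 fold change -2.32 ± 0.35 SE, adjusted p = 0.00063), whose hairpin lies 2.73 kb from the locus. The calls of all 8 rises and 8 falls were kept in all 9 fits that left out a library. Of all 178 called super-enhancers 57 kept their call in every one of those fits.

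**Figure D2:**
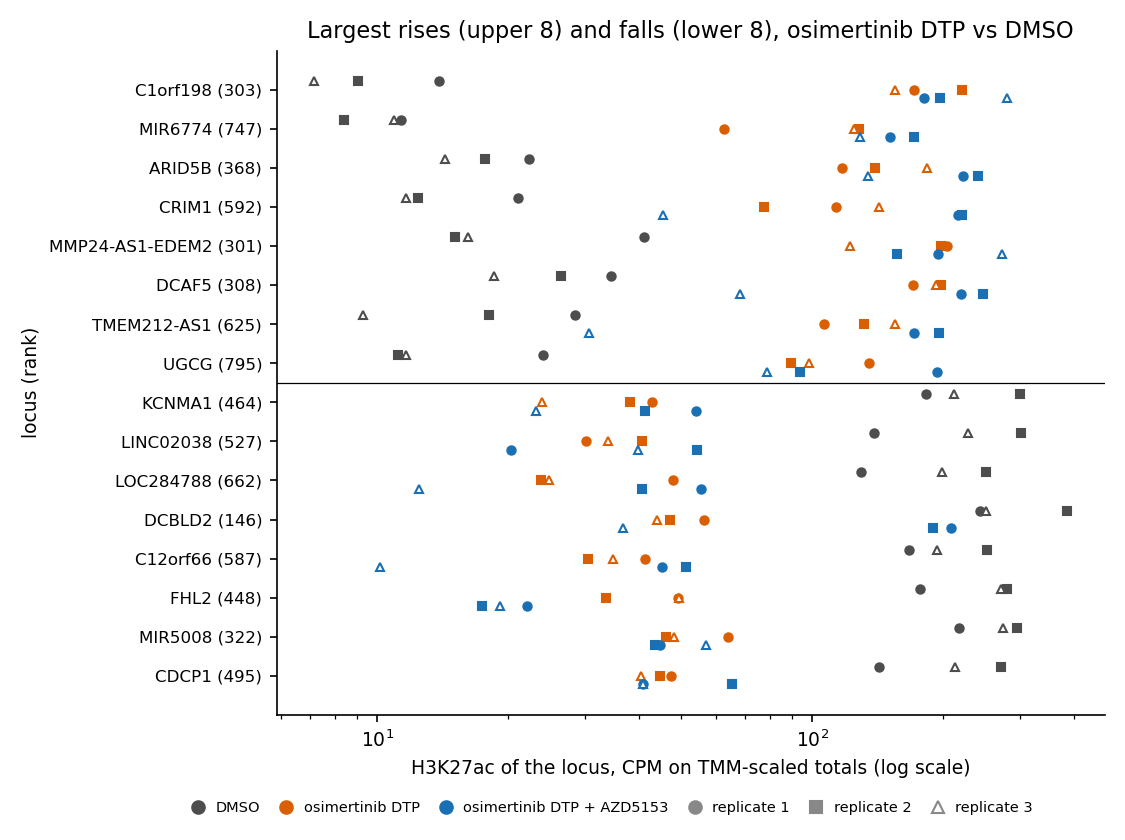
CPM (log scale) in each of the 9 libraries at the super-enhancers with the 8 largest rises and the 8 largest falls in osimertinib DTP against DMSO. The 16 loci run from C1orf198 (log2 fold change 4.19) to KCNMA1 (−2.73). They were chosen among called loci where DMSO and osimertinib DTP do not overlap, so that separation is no result. The libraries of osimertinib DTP + AZD5153 can overlap those of either group.

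Of 181 genes in 12 pathway lists, 40 had a region in a super-enhancer, in 50 loci, and 16 of these 50 loci were called in osimertinib DTP against DMSO. Lists are described by their counts, next to the background of 15.4% higher and 16.6% lower. Several called loci had a group mean below the threshold of 79.1 CPM, such as SOX4 and TXNRD1 among rises and WWTR1 and CDK6 among falls. Their calls are partly set by the rule. Genes of the YAP, TAZ and TEAD list, the transcriptional arm of the Hippo pathway, moved in both directions, with 2 of 10 loci higher and 2 lower. The locus named LINC02004 that holds regions assigned to AMOTL2, a YAP-binding scaffold gene, had 215 ± 11.4 CPM for DMSO and 501 ± 139 for osimertinib DTP (SD, n = 3; log2 fold change 1.22 ± 0.30 SE, adjusted p = 0.0061; kept in all 9 fits without a library). The CRIM1 locus of rank 592 is the one given above. WWTR1, the gene of TAZ itself, had 189 ± 45.5 CPM for DMSO and 43.5 ± 6.76 for osimertinib DTP (SD, n = 3; log2 fold change -2.12 ± 0.45 SE, adjusted p = 0.0028; kept in all 9 fits without a library). PTPN14, a phosphatase gene that restrains YAP, had 158 ± 38.6 CPM for DMSO and 64.3 ± 6.15 for osimertinib DTP (SD, n = 3; log2 fold change -1.298 ± 0.47 SE, adjusted p = 0.046; lost in 7 of the 9 fits without a library, with the highest adjusted p, 0.20, without DMSO replicate 2). With the replicate number as a block its adjusted p was 0.076. Neighbouring super-enhancers of the same gene had different values. The CRIM1 loci of ranks 62 and 423 had 0.53 and 0.73 and the PTPN14 locus of rank 601 had 0.55 on the log2 scale, and none of these was called.

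Of 4 loci of MAPK output genes, which report signalling through the RAS and ERK pathway, 2 fell and none rose. Both were named by PHLDA1, a pleckstrin homology-like domain gene induced by ERK signalling. That of rank 543 had 159 ± 45.4 CPM for DMSO and 51.2 ± 14.1 for osimertinib DTP (SD, n = 3; log2 fold change -1.63 ± 0.49 SE, adjusted p = 0.018; lost in 5 of the 9 fits without a library, with the highest adjusted p, 0.11, without DMSO replicate 2). That of rank 673 had 127 ± 35.5 CPM for DMSO and 48.5 ± 10.02 for osimertinib DTP (SD, n = 3; log2 fold change -1.39 ± 0.50 SE, adjusted p = 0.044; lost in 7 of the 9 fits without a library, with the highest adjusted p, 0.20, without DMSO replicate 2), and an adjusted p of 0.077 with the replicate number as a block. The loci of DUSP5, an ERK phosphatase gene (log2 fold change -0.14), and EPHA2, an ephrin receptor gene (-0.29), were not called. Of 6 loci of receptor tyrosine kinase genes 1 fell, at MET, the hepatocyte growth factor receptor gene, with 151 ± 45.8 CPM for DMSO and 40.3 ± 18.5 for osimertinib DTP (SD, n = 3; log2 fold change -1.91 ± 0.58 SE, adjusted p = 0.021; lost in 3 of the 9 fits without a library, with the highest adjusted p, 0.12, without osimertinib DTP replicate 2), and 0.067 with the block. The other MET loci, of ranks 244 and 676, had -0.37 and -0.42 and were not called. EGFR, the target of osimertinib, named 2 super-enhancers. That of rank 302 held 111, 128 and 118 CPM for DMSO, 109, 148 and 121 for osimertinib DTP and 135, 167 and 150.2 for osimertinib DTP + AZD5153, and that of rank 331 held 110.1, 144 and 115 CPM for DMSO, 88.8, 114 and 123 for osimertinib DTP and 163, 193 and 73.02 for osimertinib DTP + AZD5153. DMSO and osimertinib DTP overlapped at both and neither was called (log2 fold change 0.09 ± 0.32 SE, adjusted p = 0.86, and log2 fold change -0.18 ± 0.38 SE, adjusted p = 0.76). IGF1R had 0.05.

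Of 4 loci of lung and foregut lineage factors 1 rose and 1 fell. SOX4, an HMG-box transcription factor gene, had 44.4 ± 7.04 CPM for DMSO and 109 ± 55.8 for osimertinib DTP (SD, n = 3; log2 fold change 1.297 ± 0.43 SE, adjusted p = 0.029; lost in 4 of the 9 fits without a library, with the highest adjusted p, 0.16, without osimertinib DTP replicate 2). GRHL2, an epithelial transcription factor gene, had 176 ± 53.00 CPM for DMSO and 50.7 ± 9.51 for osimertinib DTP (SD, n = 3; log2 fold change -1.79 ± 0.45 SE, adjusted p = 0.0068; lost in 1 of the 9 fits without a library, with the highest adjusted p, 0.059, without DMSO replicate 2). SFTA3 (-0.08) and ELF3 (0.30) were not called. Of 6 loci of epithelial-mesenchymal transition and TGF-beta genes 2 fell and none rose. With the replicate number as a block the SMAD3 locus of rank 803 was also called higher (log2 fold change 0.93, adjusted p = 0.068 without the block and 0.048 with it). CDH1, the gene of E-cadherin, had 224 ± 77.5 CPM for DMSO and 93.1 ± 17.99 for osimertinib DTP (SD, n = 3; log2 fold change -1.27 ± 0.41 SE, adjusted p = 0.028; lost in 5 of the 9 fits without a library, with the highest adjusted p, 0.18, without DMSO replicate 2). TGFBI, a TGF-beta-induced matrix gene, had 388 ± 60.6 CPM for DMSO and 186 ± 25.7 for osimertinib DTP (SD, n = 3; log2 fold change -1.06 ± 0.36 SE, adjusted p = 0.034; lost in 6 of the 9 fits without a library, with the highest adjusted p, 0.17, without DMSO replicate 2).

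Of 3 loci of cell cycle and survival genes 2 fell. The CDK6 locus of rank 807, at a kinase gene of G1 progression, had 155 ± 56.7 CPM for DMSO and 44.03 ± 10.7 for osimertinib DTP (SD, n = 3; log2 fold change -1.82 ± 0.53 SE, adjusted p = 0.016; lost in 4 of the 9 fits without a library, with the highest adjusted p, 0.098, without DMSO replicate 2). The locus named ENSA that holds regions assigned to MCL1, an antiapoptotic BCL2 family gene, had 159.7 ± 23.5 CPM for DMSO and 75.8 ± 6.13 for osimertinib DTP (SD, n = 3; log2 fold change -1.08 ± 0.39 SE, adjusted p = 0.044; lost in 7 of the 9 fits without a library, with the highest adjusted p, 0.20, without DMSO replicate 2). In the matrix and integrin list 1 of 3 loci fell, at the integrin gene ITGB6, with 416 ± 70.3 CPM for DMSO and 128 ± 5.501 for osimertinib DTP (SD, n = 3; log2 fold change -1.696 ± 0.31 SE, adjusted p = 0.0013; kept in all 9 fits without a library). In the AP-1 list 1 of 2 fell, the locus named C11orf68 that holds regions assigned to FOSL1, which encodes FRA1, with 259.9 ± 41.6 CPM for DMSO and 142 ± 46.8 for osimertinib DTP (SD, n = 3; log2 fold change -0.88 ± 0.32 SE, adjusted p = 0.049; lost in 7 of the 9 fits without a library, with the highest adjusted p, 0.24, without osimertinib DTP replicate 3). In the hormone, retinoid and stress list 1 of 3 rose, at the thioredoxin reductase gene TXNRD1 (rank 742), with 31.3 ± 22.3 CPM for DMSO and 107 ± 37.5 for osimertinib DTP (SD, n = 3; log2 fold change 1.77 ± 0.55 SE, adjusted p = 0.023; lost in 4 of the 9 fits without a library, with the highest adjusted p, 0.11, without DMSO replicate 3). No locus was called in the lists of epithelial junctions and keratins (4 loci), inflammation and interferon (2) and RUNX, KLF and other broad factors (3). The locus of CDH3, the gene of P-cadherin, was called lower with the replicate number as a block (log2 fold change -0.81, adjusted p = 0.064 without the block and 0.043 with it). Without osimertinib DTP + AZD5153 replicate 3, where 25.1% of all stitched loci were called higher and 27.1% lower, 5 of the 10 YAP, TAZ and TEAD loci rose in place of 2, and all 3 cell cycle and survival loci fell. In that fit 1 EMT and TGF-beta locus rose and 3 fell, 1 AP-1 locus rose, 1 junction and keratin locus rose and 1 fell, and 1 broad-factor locus rose. The other lists had the counts given above.

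**Figure D3:**
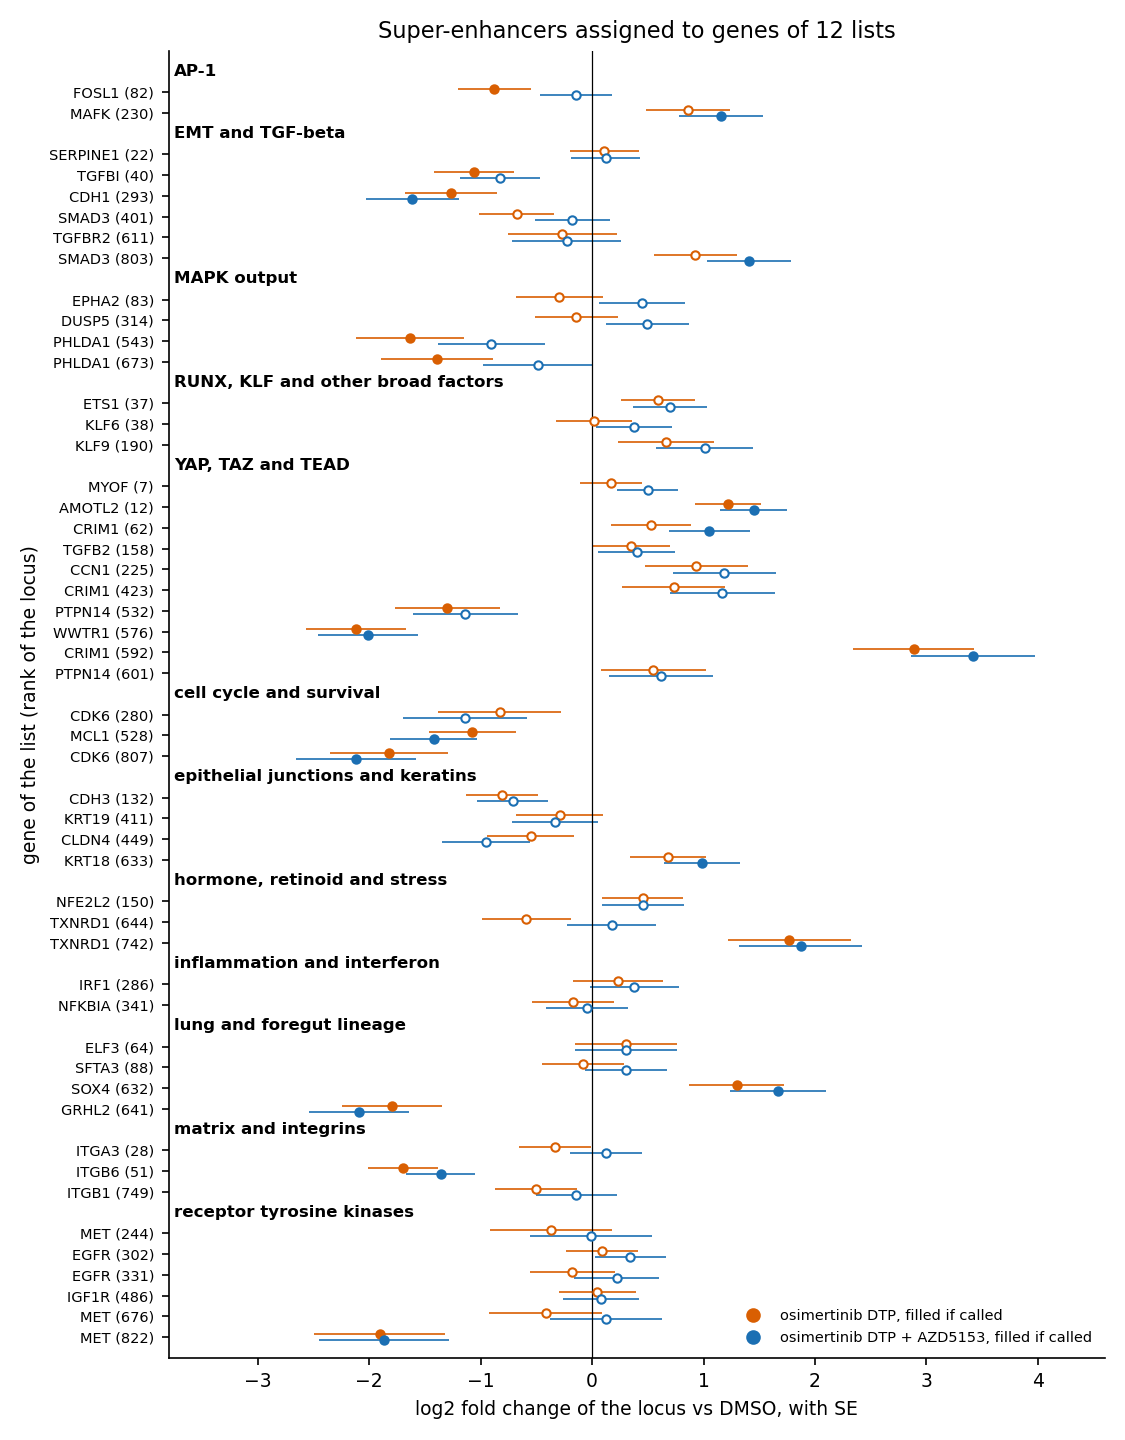
Log2 fold change, with its SE, of the 50 list loci after osimertinib and after osimertinib then AZD5153, each against the same DMSO libraries, with filled points where called. CRIM1 of rank 592 lies farthest to the right and WWTR1 and GRHL2 far to the left, and because the controls are shared a likeness of both points of a locus is no independent result.

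The second comparison sets osimertinib DTP + AZD5153 against osimertinib DTP. No super-enhancer passed the test in osimertinib DTP + AZD5153 against osimertinib DTP in either direction, and the background over all stitched loci was also 0% higher and 0% lower. At an unadjusted p under 0.05 edgeR gave 24 higher and 5 lower, and DESeq2 called 0 and 0 at the adjusted threshold. The median log2 fold change was 0.21 over super-enhancers and 0.07 over all stitched loci. Without osimertinib DTP + AZD5153 replicate 3, 23 super-enhancers (2.74%) were higher and 2 (0.238%) lower, against 1.76% and 0.414% of all stitched loci. The absence of calls with all libraries therefore turned on that library.

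DCBLD2 had the highest log2 fold change among the 20 loci with the smallest p. Its values in osimertinib DTP + AZD5153 were 209, 189 and 36.6 CPM against 56.4, 46.96 and 43.9 in osimertinib DTP (log2 fold change 1.56 ± 0.49 SE, adjusted p = 0.54, and 2.02 with adjusted p = 0.010 without replicate 3). Replicates 1 and 2 were above every osimertinib DTP library and replicate 3 was below them. LINC00656 had 172, 133 and 183 against 77.9, 72.4 and 70.1 CPM, with no overlap (log2 fold change 1.15 ± 0.32 SE, adjusted p = 0.47, and 1.05 with adjusted p = 0.045 without replicate 3). AHRR, the gene of the aryl hydrocarbon receptor repressor, had 359, 261 and 812 against 151, 274 and 133 CPM (log2 fold change 1.36 ± 0.45 SE, adjusted p = 0.57, and 0.73 with adjusted p = 0.23 without replicate 3). PRKAG2, a gene of an AMP-activated kinase subunit, had 78.9, 108 and 148 against 31.4, 62.7 and 59.2 (log2 fold change 1.13 ± 0.41 SE, adjusted p = 0.62, and 0.87 with adjusted p = 0.13 without replicate 3).

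The lowest values were at BTNL10, KPNA7, FHL2 and CELSR1. BTNL10, a butyrophilin-like gene, had 43.4, 119 and 27.4 CPM in osimertinib DTP + AZD5153, 222, 404 and 401 in osimertinib DTP and 44.8, 136 and 85.3 in DMSO (log2 fold change -2.44 ± 0.53 SE, adjusted p = 0.44, and -2.08 with adjusted p = 0.045 without replicate 3). Every osimertinib DTP library was above every library of the other two groups. KPNA7, an importin alpha gene, had 24.8, 29.1 and 12.6 against 56.7, 51.5 and 61.4 CPM (log2 fold change -1.34 ± 0.40 SE, adjusted p = 0.50, and -1.07 with adjusted p = 0.067 without replicate 3). FHL2, given above, had a log2 fold change -1.17 ± 0.36 SE, adjusted p = 0.54, and -1.16 with adjusted p = 0.056 without replicate 3. CELSR1, a gene of planar cell polarity, had 10.9, 21.6 and 38.1 against 42.2, 53.8 and 57.01 CPM (log2 fold change -1.12 ± 0.45 SE, adjusted p = 0.68, and -1.65 with adjusted p = 0.040 without replicate 3).

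The third comparison sets osimertinib DTP + AZD5153 against DMSO, and shares its DMSO libraries with the first. Here 170 super-enhancers (20.3%) rose and 62 (7.39%) fell, against 19.7% and 20% of all stitched loci. The share that rose was close to the background and the share that fell below it. Since the rule favours loci high in the 6 drug-treated libraries, it fixes part of the surplus of rises, and nothing is read from that surplus here. The median log2 fold change was 0.25 over super-enhancers and 0.06 over all stitched loci. The groups did not overlap in 298 super-enhancers (35.5%), against 46.0% of all stitched loci, and these 298 held 193 of the 232 called. The split again moved with the scaling, with 110 higher and 95 lower without TMM, and 161 and 116 with a loess offset. Without osimertinib DTP + AZD5153 replicate 3, 293 (34.9%) rose and 93 (11.1%) fell, against 31.7% and 23% of all stitched loci in that fit.

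Loci at C1orf198 (4.45 on the log2 scale), MIR6774 (3.87), ARID5B (3.46), CRIM1 (3.42), MMP24-AS1-EDEM2 (3.11) and UGCG (2.97) were among the 8 largest rises, with values given above. The other two were at CEMIP2, the gene of a cell-surface hyaluronidase, and LINC02861. CEMIP2 held 37.9, 21.1 and 17.2 CPM for DMSO, 149.7, 132 and 148 for osimertinib DTP and 308, 288 and 67.3 for osimertinib DTP + AZD5153 (log2 fold change 3.12 ± 0.52 SE, adjusted p = 0.00044). Replicate 3 of osimertinib DTP + AZD5153 was its lowest treated library. LINC02861 held 17.5, 21.2 and 14.5 CPM for DMSO, 64.7, 167 and 81.7 for osimertinib DTP and 114, 137 and 206 for osimertinib DTP + AZD5153 (log2 fold change 3.100 ± 0.45 SE, adjusted p = 0.00027). FHL2 had the largest fall (log2 fold change -3.63 ± 0.40 SE, adjusted p = 0.00013). KPNA7 held 142, 268 and 229 CPM for DMSO, 56.7, 51.5 and 61.4 for osimertinib DTP and 24.8, 29.1 and 12.6 for osimertinib DTP + AZD5153 (log2 fold change -3.26 ± 0.43 SE, adjusted p = 0.00021). CELSR1 held 104, 173 and 193 CPM for DMSO, 42.2, 53.8 and 57.01 for osimertinib DTP and 10.9, 21.6 and 38.1 for osimertinib DTP + AZD5153 (log2 fold change -2.74 ± 0.48 SE, adjusted p = 0.00057). All DMSO libraries of CEMIP2 and LINC02861, and all drug-treated libraries of FHL2, KPNA7 and CELSR1, lay below the threshold of 79.1 CPM. These loci reached it only with the signal of the other libraries, so their place here is partly set by the rule. The calls at all 16 of the largest rises and falls were kept in every fit without a library, as were 104 of the 232 called.

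Among the 10 highest-scoring loci, the top PVT1 locus rose in this comparison (log2 fold change 1.00 ± 0.27 SE, adjusted p = 0.0080; lost in 2 of the 9 fits without a library, with the highest adjusted p, 0.057, without DMSO replicate 2) with the high input given above, and MALAT1 rose too (log2 fold change 1.15 ± 0.30 SE, adjusted p = 0.0062; lost in 1 of the 9 fits without a library, with the highest adjusted p, 0.055, without DMSO replicate 3). MALAT1 held 337, 289 and 229.7 CPM for DMSO, 414, 572 and 340.5 for osimertinib DTP and 631, 534 and 737 for osimertinib DTP + AZD5153. SUSD1 rose in osimertinib DTP (log2 fold change 1.02 ± 0.34 SE, adjusted p = 0.032; lost in 6 of the 9 fits without a library, with the highest adjusted p, 0.14, without DMSO replicate 3) and also after AZD5153 (log2 fold change 0.95 ± 0.34 SE, adjusted p = 0.036; lost in 5 of the 9 fits without a library, with the highest adjusted p, 0.18, without osimertinib DTP + AZD5153 replicate 1, and 0.054 with the replicate number as a block), with 255, 312 and 237 CPM for DMSO, 586, 486 and 559.6 for osimertinib DTP and 687, 615 and 255 for osimertinib DTP + AZD5153. Replicate 3 of the last group lay within the DMSO range. LINC01460 rose in osimertinib DTP (log2 fold change 0.84 ± 0.27 SE, adjusted p = 0.029; lost in 5 of the 9 fits without a library, with the highest adjusted p, 0.14, without DMSO replicate 3), and was not called against DMSO after AZD5153 (log2 fold change 0.43, adjusted p = 0.22). The difference between the drug-treated groups was not called either (log2 fold change -0.40, adjusted p = 0.87).

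In the lists, 3 of 10 YAP, TAZ and TEAD loci rose and 1 fell. The LINC02004 locus with the AMOTL2 regions had 215 ± 11.4 CPM for DMSO and 589 ± 117 for osimertinib DTP + AZD5153 (SD, n = 3; log2 fold change 1.45 ± 0.30 SE, adjusted p = 0.0016; kept in all 9 fits without a library). The CRIM1 locus of rank 62 had 150.5 ± 4.802 CPM for DMSO and 312 ± 141 for osimertinib DTP + AZD5153 (SD, n = 3; log2 fold change 1.05 ± 0.36 SE, adjusted p = 0.030; lost in 5 of the 9 fits without a library, with the highest adjusted p, 0.13, without osimertinib DTP + AZD5153 replicate 2, and 0.051 with the replicate number as a block). WWTR1 had 189 ± 45.5 CPM for DMSO and 46.9 ± 24.4 for osimertinib DTP + AZD5153 (SD, n = 3; log2 fold change -2.01 ± 0.45 SE, adjusted p = 0.0026; kept in all 9 fits without a library). The CRIM1 groups overlapped at rank 62. The locus of rank 803 at SMAD3, a TGF-beta signal transducer gene, rose with 44.5 ± 15.8 CPM for DMSO and 118 ± 14.2 for osimertinib DTP + AZD5153 (SD, n = 3; log2 fold change 1.404 ± 0.38 SE, adjusted p = 0.0078; lost in 2 of the 9 fits without a library, with the highest adjusted p, 0.059, without DMSO replicate 3). The DMSO mean of this SMAD3 locus lay below the threshold of 79.1 CPM, so its rise is partly set by the rule. CDH1 fell (log2 fold change -1.61 ± 0.42 SE, adjusted p = 0.0064; lost in 1 of the 9 fits without a library, with the highest adjusted p, 0.051, without DMSO replicate 2). The locus named INTS1 that holds regions assigned to MAFK, a small MAF factor gene, rose (log2 fold change 1.16 ± 0.38 SE, adjusted p = 0.024; lost in 3 of the 9 fits without a library, with the highest adjusted p, 0.11, without DMSO replicate 1). So did KRT18, a simple-epithelium keratin gene (log2 fold change 0.99 ± 0.34 SE, adjusted p = 0.030; lost in 5 of the 9 fits without a library, with the highest adjusted p, 0.12, without DMSO replicate 3), SOX4 (log2 fold change 1.67 ± 0.43 SE, adjusted p = 0.0063) and TXNRD1 (log2 fold change 1.87 ± 0.55 SE, adjusted p = 0.014; lost in 3 of the 9 fits without a library, with the highest adjusted p, 0.083, without osimertinib DTP + AZD5153 replicate 1).

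GRHL2 (log2 fold change -2.09 ± 0.45 SE, adjusted p = 0.0020), CDK6 (log2 fold change -2.12 ± 0.53 SE, adjusted p = 0.0056), the MCL1 locus (log2 fold change -1.42 ± 0.39 SE, adjusted p = 0.0093; lost in 1 of the 9 fits without a library, with the highest adjusted p, 0.054, without DMSO replicate 2), ITGB6 (log2 fold change -1.36 ± 0.31 SE, adjusted p = 0.0029) and MET (log2 fold change -1.87 ± 0.58 SE, adjusted p = 0.019; lost in 1 of the 9 fits without a library, with the highest adjusted p, 0.091, without DMSO replicate 2) fell. No MAPK output, inflammation or broad-factor locus was called. With the block CLDN4, a claudin gene, was called lower (log2 fold change -0.95, adjusted p = 0.064 without the block and 0.026 with it). Without replicate 3 of osimertinib DTP + AZD5153, where 31.7% of all stitched loci were called higher against DMSO and 23% lower, 7 of the 10 YAP, TAZ and TEAD loci rose and 2 fell. In that fit 2 of 3 broad-factor loci and 2 of 3 hormone, retinoid and stress loci rose. Besides the rise at KRT18, 1 junction and keratin locus fell, at CLDN4, and the other lists had the same counts. Against osimertinib DTP no list locus was called with all libraries, and without that replicate 1 was, the PHLDA1 locus of rank 673 (log2 fold change 1.35, adjusted p = 0.040).

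The promoters of the naming genes, regions within 1 kb of a TSS that the rule left out, gave a readout that the choice of members did not use. A promoter region was present for 598 distinct naming genes, at 696 super-enhancers. Across these genes, the log2 fold changes of locus and promoter in osimertinib DTP against DMSO had a Spearman coefficient of 0.43 and a Pearson r of 0.43. Genes are not independent replicates, and locus and promoter share libraries, depth and scaling. Of 75 genes with a called rise at a super-enhancer, 69 had a promoter above 0 on the log2 scale and 5 had one called higher, MIR1260B, MTUS1, GNA14, FSTL1 and PDGFRB, the last of which is one of the fibroblast markers above. The median was 0.95 over these promoters and 1.55 over their loci. Of 60 genes with a called fall, 27 had a promoter below 0, and 5 had one called lower, LINC02324, C11orf86 (at a locus with high input), ECE1, MYEOV and CYTH4, with medians of 0.09 over promoters and −1.53 over loci. For 11 of the 75 genes and 8 of the 60 the called locus was not the highest-ranked super-enhancer of the gene, and LINC02324 was 1 of these 8. Its super-enhancer of rank 215 was not called (log2 fold change -0.12, adjusted p = 0.80), so by the highest-ranked locus 4 genes had a fall at both. All 12295 promoters tested had a median of 0.41, with 2.28% called higher and 1.26% lower. Most of all promoters tested were therefore above 0. The share of all promoters above 0 was not computed, so the 69 of 75 and 27 of 60 stand without that background.

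GNA14 had a promoter with 0.899, 0.922 and 0.697 CPM for DMSO, 3.602, 10.7 and 3.195 for osimertinib DTP and 6.06, 4.84 and 8.24 for osimertinib DTP + AZD5153 (log2 fold change 2.77 ± 0.64 SE, adjusted p = 0.013), and its super-enhancer rose (log2 fold change 2.51 ± 0.41 SE, adjusted p = 0.00074). The promoter was higher in every osimertinib DTP library than in any DMSO library. The MRAS promoter had 5.49, 3.17 and 1.99 CPM for DMSO, 7.11, 35.4 and 6.99 for osimertinib DTP and 14.7, 16.6 and 43.7 for osimertinib DTP + AZD5153 (log2 fold change 2.204 ± 0.73 SE, adjusted p = 0.059) and its super-enhancer rose (log2 fold change 2.36 ± 0.44 SE, adjusted p = 0.0014). The highest promoter values came from osimertinib DTP replicate 2 and osimertinib DTP + AZD5153 replicate 3. LINC02324 had 7.01, 12.1 and 8.86 CPM for DMSO, 2.65, 2.62 and 2.297 for osimertinib DTP and 4.77, 3.58 and 1.53 for osimertinib DTP + AZD5153 at its promoter (log2 fold change -1.88 ± 0.57 SE, adjusted p = 0.041) and 217, 299 and 239.7 CPM for DMSO, 76.9, 81.5 and 75.7 for osimertinib DTP and 99.2, 115 and 75.1 for osimertinib DTP + AZD5153 at its super-enhancer of rank 222. At THUMPD3 the promoter had 19.8, 34.6 and 22.6 CPM for DMSO, 16.97, 21.5 and 13.8 for osimertinib DTP and 30.2, 35.2 and 19.7 for osimertinib DTP + AZD5153 (log2 fold change -0.56 ± 0.50 SE, adjusted p = 0.54) while the super-enhancer fell (log2 fold change -1.92 ± 0.48 SE, adjusted p = 0.0072; lost in 2 of the 9 fits without a library, with the highest adjusted p, 0.054, without osimertinib DTP replicate 2).

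In osimertinib DTP + AZD5153 against DMSO, 114 of 126 genes with a risen super-enhancer had a promoter above 0 and 24 had one called higher, with a median of 1.15 on the log2 scale. Of 47 genes with a fallen super-enhancer 19 had a promoter below 0 and 6 had one called lower, with a median of 0.26. All promoters there had a median of 0.49, with 4.22% called higher and 1.94% lower, and the Spearman coefficient of locus and promoter was 0.45. Here too most promoters were above 0, and the share of all promoters above 0 was not computed.

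**Figure D4:**
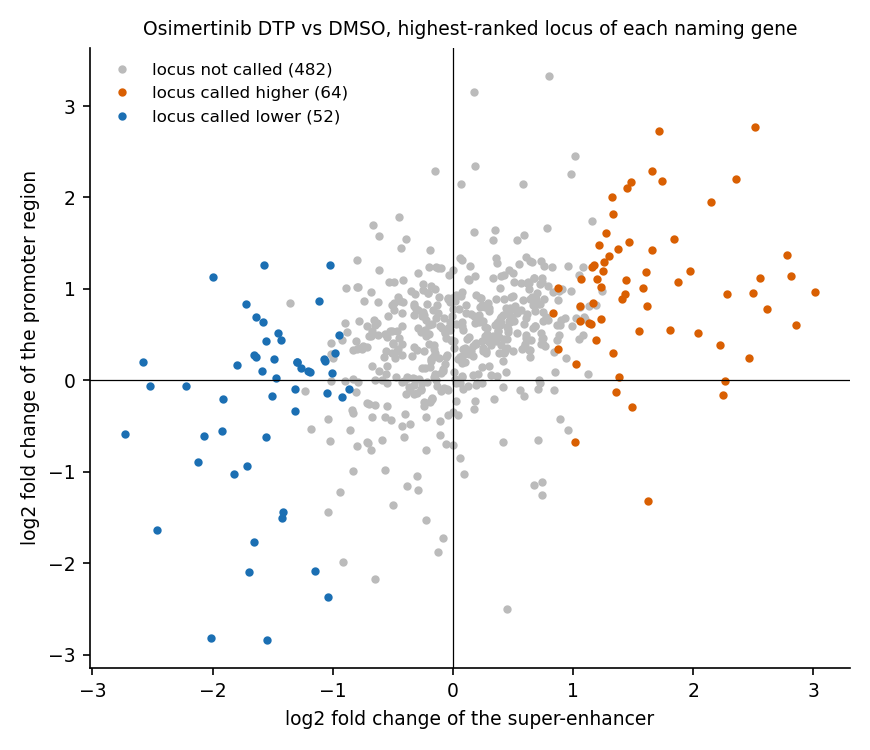
Log2 fold change at the promoter against that at the super-enhancer in osimertinib DTP against DMSO, 1 point for each of 598 naming genes with its highest-ranked super-enhancer, coloured by the call at the super-enhancer. The points of super-enhancers that rose lie mostly above 0 on the promoter axis, and those of super-enhancers that fell spread on both sides of 0. All promoters tested had a median of 0.41, so a place above 0 is common to most promoters.

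At the level of single regions, 569 of the 7807 rose (7.29%) and 569 fell (7.29%) in osimertinib DTP against DMSO. Of all 157919 tested regions 5.58% rose and 5.13% fell. Without osimertinib DTP + AZD5153 replicate 3, 1361 (17.4%) rose and 1258 (16.1%) fell, against 14.2% and 12.7% of all in that fit. Super-enhancer regions were chosen for high signal, with a median of 10.1 CPM against 6.06 in other distal regions. Regions with more counts pass the test more readily, so these shares are not read as more change at super-enhancers. In osimertinib DTP + AZD5153 against DMSO 985 (12.6%) rose and 779 (9.98%) fell, against 9.05% and 9.01% of all. Without replicate 3 of osimertinib DTP + AZD5153, 1860 (23.8%) rose and 1304 (16.7%) fell, against 18.4% and 17.3% of all in that fit. The share that fell was then below the background. Between the drug-treated groups 0 of 7807 regions passed with edgeR in either direction. At an unadjusted p under 0.05 edgeR gave 177 higher and 181 lower, and DESeq2 called 1 and 9 at the adjusted threshold. Without replicate 3 of osimertinib DTP + AZD5153, edgeR called 7 higher (0.0897%) and 13 lower (0.167%), against 0.0637% and 0.0593% of all. A called region was present in 350 super-enhancers in osimertinib DTP against DMSO, higher only in 181, lower only in 156 and in both directions in 13. The corresponding counts in osimertinib DTP + AZD5153 against DMSO were 505, 267, 197 and 41. Calls in both directions were thus found in few super-enhancers. The log2 fold change between the regions of a super-enhancer spanned a median range of 1.77 in osimertinib DTP against DMSO. This range was 2.14 in osimertinib DTP + AZD5153 against DMSO. Between the drug-treated groups, where no region was called with all libraries, it was 1.14.

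PALLD, the gene of the actin-binding protein palladin, gave the widest such contrast. In its super-enhancer of rank 196, at chr4:168600654-168620961, the region at the start (chr4:168600654-168601155) held 6.38, 19.7 and 11.6 CPM for DMSO and 0.853, 0.689 and 1.098 for osimertinib DTP (log2 fold change -3.804 ± 0.64 SE, adjusted p = 0.0037). A region 14.9 kb further on (chr4:168615521-168616022) held 6.205, 2.76 and 1.99 CPM in DMSO and 28.8, 30.6 and 21.7 in osimertinib DTP (log2 fold change 2.88 ± 0.69 SE, adjusted p = 0.015). The 2 leftmost of its 10 regions fell and 2 others rose, while the locus as a whole was not called (log2 fold change 0.64 ± 0.47 SE, adjusted p = 0.32). At NUP50-DT a region at chr22:45094656-45095157 held 4.05, 9.22 and 5.97 CPM in DMSO and 0.664, 0.689 and 1.098 in osimertinib DTP (log2 fold change -2.94 ± 0.62 SE, adjusted p = 0.0080), and a region at chr22:45111950-45112451 held 1.53, 1.54 and 2.49 and 10.4, 17.9 and 19.97 (log2 fold change 3.11 ± 0.67 SE, adjusted p = 0.0096). Acetylation thus fell at one end of the PALLD and NUP50-DT loci and rose at the other. LINC01203, with 2 regions called higher and 3 lower, had another layout. Its falls lay inside the locus, 9.42, 10.5 and 11.4 kb from its start, and its called rises at 13.9 and 15.9 kb.

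Each library was also ranked alone. Since the members were chosen on the mean of the same 9 libraries, these counts describe the members and are not tested. Above the threshold of the single library lay 595 to 646 of the 839 for DMSO, 561 to 703 for osimertinib DTP and 373 to 671 for osimertinib DTP + AZD5153, whose replicate 3 had the fewest. Of 1910 stitched loci that passed in at least 1 library, 839 were super-enhancers. Of these 174 passed in all 9 libraries and the fewest was 2. Above it in all 3 libraries of DMSO and none of osimertinib DTP lay 70 super-enhancers, and 74 showed the opposite. Between DMSO and osimertinib DTP + AZD5153 the counts were 67 and 41. Between the drug-treated groups 4 lay in osimertinib DTP only (TRIB3, NECTIN1, MNT and CSRNP1) and 1 in osimertinib DTP + AZD5153 only (LINC00656). These 5 loci differed by -0.38, -0.58, -0.66, -0.68 and 1.15 on the log2 scale and none passed the test with all libraries.

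The highest-scoring super-enhancers above the threshold in DMSO and not in osimertinib DTP were LINC00656, DCBLD2, LINC02324, MIR5008 and TOP1, the gene of topoisomerase I. LINC00656, at chr20:23142736-23161842, held 265, 389 and 381 CPM for DMSO, 77.9, 72.4 and 70.1 for osimertinib DTP and 172, 133 and 183 for osimertinib DTP + AZD5153 (log2 fold change -2.23 ± 0.33 SE, adjusted p = 0.00057). Those above in DMSO and not after AZD5153 included IER5, an immediate early response gene, with 216, 432 and 377 CPM for DMSO, 72.04, 91.02 and 56.2 for osimertinib DTP and 56.2, 79.2 and 68.8 for osimertinib DTP + AZD5153 (log2 fold change -2.33 ± 0.37 SE, adjusted p = 0.00035). Those above in osimertinib DTP and not in DMSO were NEK6, a mitotic kinase gene, RASAL2, a RAS GTPase-activating protein gene, FAM50B, ZRANB1 and SYT14. ZRANB1, the gene of a deubiquitinase, held 51.3, 51.5 and 42.9 CPM for DMSO, 197, 271 and 215 for osimertinib DTP and 227, 238 and 170.2 for osimertinib DTP + AZD5153 (log2 fold change 2.23 ± 0.33 SE, adjusted p = 0.00059). NEK6 held 68.3, 43.3 and 59.2 CPM for DMSO, 157, 184 and 187 for osimertinib DTP and 256, 240.4 and 405 for osimertinib DTP + AZD5153 (log2 fold change 1.62 ± 0.34 SE, adjusted p = 0.0026). All DMSO libraries of ZRANB1 lay below the threshold of 79.1 CPM. Those of NEK6 did so only in the TMM-scaled CPM printed here. On the scale of the score, which holds no TMM factor (1.18 for DMSO replicate 1), that replicate of NEK6 reached the threshold. Both rises are partly set by the rule. FAM50B named 3 super-enhancers, and all 3 rose in both comparisons with DMSO. ADAMTS2, a procollagen protease gene, and DAGLA, the gene of a diacylglycerol lipase, lay above the threshold in osimertinib DTP + AZD5153 and not in DMSO (log2 fold change 2.56 ± 0.48 SE, adjusted p = 0.00086 and log2 fold change 1.68 ± 0.38 SE, adjusted p = 0.0026).

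**Figure D5:**
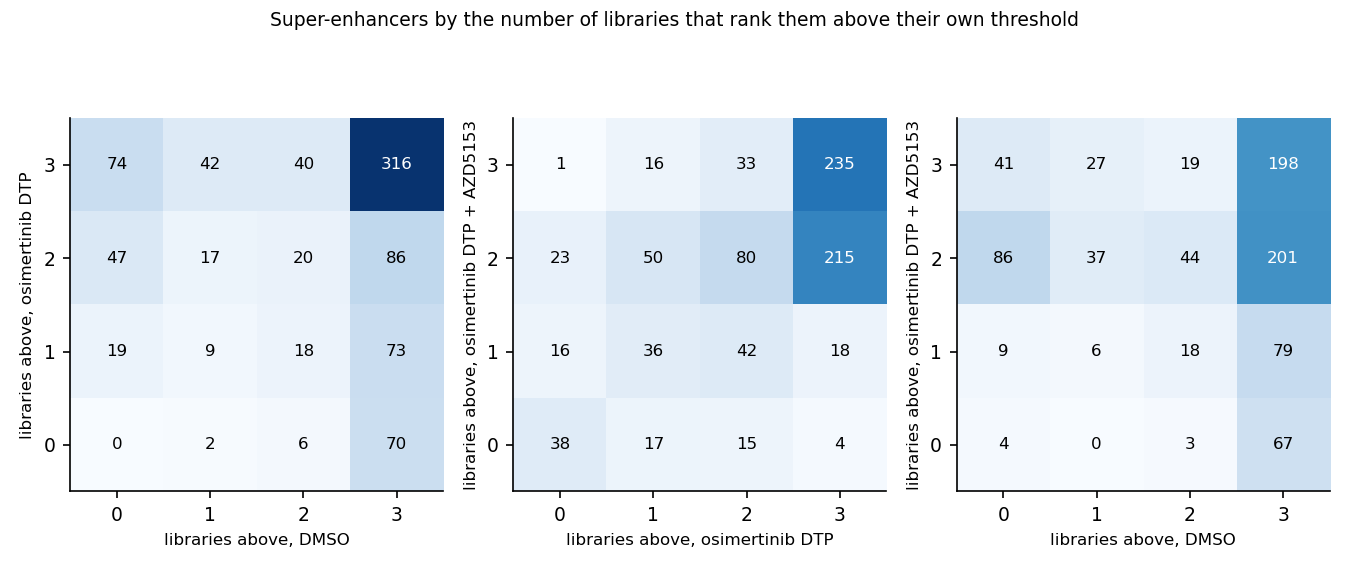
Number of super-enhancers by how many of the 3 libraries of each group place them above the threshold of the single library, in 1 grid per pair of groups with a group on each axis. The corners of the DMSO and osimertinib DTP grid hold 70 and 74 super-enhancers, and those of the grid of both drug-treated groups hold 4 and 1.

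The super-enhancer that contains the MIR7850 hairpin (chr19:2630715-2630793), whose mature sequence is printed above, rose in osimertinib DTP. It held 87.9, 81.7 and 71.2 CPM for DMSO, 170.4, 287 and 167 for osimertinib DTP and 179, 199 and 358 for osimertinib DTP + AZD5153 (log2 fold change 1.37 ± 0.37 SE, adjusted p = 0.010; lost in 2 of the 9 fits without a library, with the highest adjusted p, 0.059, without DMSO replicate 3). The locus around MIR221 and MIR222 on chromosome X, at chrX:45735267-45783473, held 189, 283 and 208 CPM for DMSO, 132, 116 and 147 for osimertinib DTP and 277, 305 and 55.8 for osimertinib DTP + AZD5153 and was not called in osimertinib DTP against DMSO (log2 fold change -0.78 ± 0.47 SE, adjusted p = 0.22). Of the 9 super-enhancers with a hairpin inside, MIR7850 alone was called in that comparison, against the background of 15.4% higher and 16.6% lower. Of 33 super-enhancers named by a microRNA or microRNA host gene, 23 had the hairpin in the RefSeq table and 8 overlapped it, so such a name mostly marks a neighbour.

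Peaks that the authors called in each library come from the same reads as the score, so regions of high score lie under a peak more often by the rule, and the shares are a description. The peaks lay over 70.9 to 89.3% of super-enhancer regions, against 42.8 to 78.4% of the other distal regions, with the lowest values in osimertinib DTP + AZD5153 replicate 3. The share ranged from 81.3 to 88.2% in DMSO, from 83.6 to 89.3% in osimertinib DTP and from 70.9 to 85.9% in osimertinib DTP + AZD5153, so the groups overlapped. The median fold enrichment of the peaks over super-enhancer regions was 8.22 to 18.8, against 5.97 to 11.01 over the others. At least 1 region lay under a peak in 824 to 839 of the 839 super-enhancers. Only 18 super-enhancer regions had a count above 80% of 1152, the most that 1 read per position and strand allows. With other rules the number of super-enhancers was 622 (a wider stitching gap), 740 (a gap of 5 kb) and 743 (the median in place of the mean), which held 80.5%, 69.4% and 88.6% of the 7807 regions.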

How the data were processed

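H3K27ac ChIP-seq was done on 9 libraries, and 1 pooled input was sequenced. The authors deposited raw read counts, not normalized, for 169637 regions, an annotated table of 67387 of them with equal counts, and a peak list per library with fold enrichment (a ratio) and −log10 p and q. The submitters' processing notes name hg38, BWA 0.7.17, MACS2 2.2.6, featureCounts 2.0.0 and ChIPseeker 1.29.1. Their settings and the treatment of duplicate reads are not given in the sources used here.

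Groups came from the sample titles. Members, lists and motifs were chosen with earlier results of these data known, so nothing here is independent of those results. The main test of the deposited counts was the quasi-likelihood test of edgeR 4.0.16 (with limma 3.58.1 under R 4.3.3). It was fitted to all 9 immunoprecipitated libraries together, with group means, TMM scaling and filterByExpr (minimum count 10), once over the 157919 regions left and once over the summed counts of the 14006 stitched loci with the same scaling. P-values were adjusted by Benjamini-Hochberg over each whole table, two-sided, at 0.05. CPM in the score and its threshold used library totals over the counted regions, without TMM. CPM printed per library at loci and regions were TMM-scaled. Alternatives were DESeq2 1.42.0, no TMM, a loess offset (span 0.3), no filter, only both groups, a replicate block, a threshold of 0.01, leaving out each library, and other rules for members. The fits were checked on simulated data.

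Named loci were the 10 highest scores, 2 on each side of the threshold, the 8 largest rises and falls per comparison among called loci without overlap (for fewer than 4, the 4 highest and 4 lowest of the 20 smallest p), list loci, and the 5 highest-scoring loci above the single-library threshold in a group and in none of another. Loci outside this rule (GNA14, MRAS, THUMPD3, PALLD, NUP50-DT, and those named for a microRNA, an extreme length, several super-enhancers or a called promoter) were chosen after their values were seen. Same-numbered libraries of DMSO and osimertinib DTP deviated together (correlations of 0.358, 0.373 and 0.355 across regions, each over 0.1), so values with the replicate number as a block are also given. The main fit holds no block, so p-values are unpaired unless the block is named. The labels do not say what a number marks. In the other comparisons not every pair passed 0.1 over all tested regions, but over super-enhancer regions the pairs of DMSO and osimertinib DTP + AZD5153 gave 0.108, 0.605 and 0.426, so block values are given there too. No genome was used here, so motifs in super-enhancer regions were not searched. Promoters and microRNAs came from RefSeq tables on GRCh38.p14. Counts limit precision, and p-values measure the spread between these samples.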

Additional observations from a re-analysis of the deposited data

How the results depend on the processing

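In osimertinib DTP against DMSO the higher and lower super-enhancers numbered 102 and 76, and became 38 and 33 at an adjusted p under 0.01 and 216 and 136 in a fit of both groups alone. With DESeq2 they were 72 and 82. The regions, 569 and 569, became 147 and 126, and 1369 and 1152, and DESeq2 gave 977 lower. In osimertinib DTP + AZD5153 against DMSO, 170 and 62 loci became 84 and 37 at 0.01, 110 and 95 without TMM, with 40 lower for both groups alone and 116 lower with the loess offset. Regions there, 985 and 779, became 338 and 305 at 0.01, with 491 lower for both groups alone. Against osimertinib DTP, DESeq2 gave 1 higher and 9 lower regions. TMM moved the median log2 fold change of all loci in osimertinib DTP + AZD5153 against DMSO from −0.14 to 0.06. The replicate block, as a test of the pairing, gave 105 and 79 loci and 547 and 575 regions in osimertinib DTP against DMSO, 171 and 72 loci and 906 and 828 regions in osimertinib DTP + AZD5153 against DMSO, and 0 and 0 between the drug-treated groups. Leaving out 1 library gave 37 to 199 loci higher and 24 to 152 lower in the first comparison (regions 27 to 1361 and 38 to 1258), 0 to 23 and 0 to 2 against osimertinib DTP (regions 0 to 7 and 0 to 13), and 73 to 293 and 33 to 93 for osimertinib DTP + AZD5153 against DMSO (regions 229 to 1860 and 303 to 1304). The number of super-enhancers was 756 to 907 without a library, 622 with a wider gap, 740 with a gap of 5 kb, 743 by the median, 983 after input subtraction, 1014 over 1000 bp from a TSS and 1214 with no such limit. The share of super-enhancer regions under a peak was, without a library, 82.8 to 86.3% for DMSO, 85.6 to 88.5% for osimertinib DTP and 77.1 to 84.5% for osimertinib DTP + AZD5153. At a −log10 q of at least 5 it was 79.8, 82.7 and 76.2%, and with a stricter minimum overlap 80.1, 82.6 and 75.8%. Of 1695 repeats for single named results, 1523 kept their status, called or not called, 167 lost a call, 5 gained one and 0 changed sign. Results not called in the main fit are among them, such as the loci named between the drug-treated groups. The fit without a filter keeps the same 14006 loci as the main fit, so its repeats add no check. Except where stated, the cause of a change was not tested.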
